A study of Mus musculus with 12 samples.

Results

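The 8 genes described here, of 55573 in the count table, were the peptide precursor genes Penk, Trh, Sst and Npy, the granin-family genes Scg2, Chgb and Vgf, and Tacr1, the substance P receptor gene. They were chosen by name, with their VIP responses in these same libraries already known, to set side by side their induction by vasoactive intestinal peptide (VIP) and its dependence on the transcription factor CREB, Penk in particular. The values that bear on VIP induction and CREB dependence are therefore a description: no p-value is given for them, calls from the fit over all genes are stated as counts beside the share of all genes called, and nothing is read from those counts. A test of the 8 genes is given for ACREB against control virus without VIP. Its PBS libraries also enter the VIP responses and their difference between viruses, so it is not independent of how the genes were chosen. All cultures were astrocyte-enriched cortical cultures from C57BL6/J pups at postnatal day 0 to 2, shaken at day 7 in vitro to detach other glia and replated. The 4 groups carried ACREB lentivirus with VIP, ACREB lentivirus with PBS, control lentivirus with VIP, or control lentivirus with PBS, with 3 libraries each, numbered 1 to 3. Both viruses were applied for 24 h and left for 5 days, and VIP was given at 0.5 µM for 30 min with a recovery of 90 min. The control vector was pCIG3 (pCMV-IRES-GFP) and the other vector added ACREB. The CMV promoter is not restricted to astrocytes, and the labels give no share of transduced cells.

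Neuropeptides are cut from longer precursor proteins in the regulated secretory pathway, stored with granins in dense-core granules and released to act on G protein-coupled receptors. VIP acts mainly through receptors that raise cAMP, and cAMP-dependent protein kinase then phosphorylates CREB bound at cAMP response elements (CREs) in promoters. Penk, Sst, Scg2, Chgb and Vgf are textbook cAMP-responsive genes, mostly from work in neurons and endocrine cells. Granins have also been described in cultured astrocytes. ACREB is a dominant-negative partner of CREB that pairs with its leucine zipper and keeps it off DNA. ACREB expression itself was not analysed here.

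RefSeq promoter windows of 300 bases, from 250 bases before to 50 bases after the annotated start (GRCm38.p6), were found for 6 of the 8 genes, and Penk and Vgf were not matched. The full palindromic CRE, TGACGTCA, stood in 3 of the 6, those of Scg2, Chgb and Sst, against 1.79% of 32851 windows of the same kind. It lay 68 to 61 bases before the start in Scg2, 72 to 65 in Chgb and 48 to 41 in Sst. The shorter CREB site CGTCA on either strand, outside a full CRE, was in Trh (96 to 92 bases before the start) and in Tacr1 (226 to 222 bases before it). CGTCA, also where it is part of a full CRE, was in 20.8% of the windows. The AP-1 site TGANTCA was in 0 of the 6, against 7.81% of windows, and the Npy window held none of the 3 motifs. A match describes letters, not binding, and both strands were read. The 5 windows that hold a CRE or a shorter site are printed below, 5′ to 3′ on the gene's strand, because they set the CRE-bearing granin and Sst promoters beside those of Tacr1 and Trh, which had the largest VIP responses in control cultures; capitals mark the motif, and Trh was added after its values were seen.
Scg2, chr1:79439977-79440276, minus strand: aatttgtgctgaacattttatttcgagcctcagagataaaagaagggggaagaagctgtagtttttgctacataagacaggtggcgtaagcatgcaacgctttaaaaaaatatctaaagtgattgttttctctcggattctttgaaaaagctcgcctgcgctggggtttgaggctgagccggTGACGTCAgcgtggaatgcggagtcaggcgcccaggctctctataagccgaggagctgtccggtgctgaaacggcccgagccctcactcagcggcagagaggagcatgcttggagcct
Chgb, chr2:132781392-132781691, plus strand: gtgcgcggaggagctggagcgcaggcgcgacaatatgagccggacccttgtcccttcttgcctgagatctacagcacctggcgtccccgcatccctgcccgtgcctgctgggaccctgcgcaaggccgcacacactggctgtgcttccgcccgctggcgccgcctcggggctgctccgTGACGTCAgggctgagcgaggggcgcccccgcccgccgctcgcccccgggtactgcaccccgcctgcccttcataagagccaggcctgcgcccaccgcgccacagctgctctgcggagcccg
Sst, chr16:23890795-23891094, minus strand: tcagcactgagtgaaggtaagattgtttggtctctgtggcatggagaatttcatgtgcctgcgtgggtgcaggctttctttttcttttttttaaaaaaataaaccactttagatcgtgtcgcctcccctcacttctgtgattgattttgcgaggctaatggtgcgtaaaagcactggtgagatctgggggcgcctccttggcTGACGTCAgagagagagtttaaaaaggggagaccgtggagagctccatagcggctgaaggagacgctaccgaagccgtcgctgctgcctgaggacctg
Tacr1, chr6:82402225-82402524, plus strand: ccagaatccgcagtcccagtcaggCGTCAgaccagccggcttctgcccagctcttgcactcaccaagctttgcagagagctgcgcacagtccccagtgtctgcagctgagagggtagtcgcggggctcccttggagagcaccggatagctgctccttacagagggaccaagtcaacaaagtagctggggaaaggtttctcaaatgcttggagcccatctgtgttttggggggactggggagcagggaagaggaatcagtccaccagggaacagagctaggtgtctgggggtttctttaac
Trh, chr6:92244601-92244900, minus strand: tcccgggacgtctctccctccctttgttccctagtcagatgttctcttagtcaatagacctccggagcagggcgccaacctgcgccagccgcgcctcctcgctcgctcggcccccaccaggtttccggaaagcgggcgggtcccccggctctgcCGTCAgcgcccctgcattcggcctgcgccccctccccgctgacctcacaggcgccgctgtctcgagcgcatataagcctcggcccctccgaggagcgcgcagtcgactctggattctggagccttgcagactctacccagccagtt

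Total counts were 16571398 to 20529238 per library, so that 1 count equalled 0.0499 to 0.0604 CPM (counts relative to the TMM-adjusted library size). Of the 8 genes, 7 passed the filter on low counts that left 16761 genes for testing, and Sst did not. Astrocyte markers were high, with 12 of 12 tested and a summed level of 6646 to 7966 CPM. The sums were 94.4 to 202.4 CPM for 13 neuron markers and 1026 to 2793 CPM for 8 microglia markers. They were 1887 to 3031 CPM for 8 fibroblast and mural markers, mostly from Acta2. Oligodendrocyte-lineage markers (8 genes) summed to 514.3 to 598.2 CPM and ependymal markers (5 genes) to 313.2 to 450.1 CPM. Of 6 endothelial markers, 2 passed the filter and Cldn5 was at 0 in all 12 libraries. Control PBS library 2 stood apart, since GC content and gene length accounted for 44.9% of its variance around the median library, against 21.9% for ACREB PBS library 2 and 11.9% or less for the others. Nothing in the labels tells whether libraries 1 to 3 came from different cultures or pups, and a p-value here speaks of the spread between these libraries, possibly technical, and of no more.

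Per kilobase of exon, the granins led the 8 genes. In control PBS cultures, Scg2 averaged 48.4 ± 46.0 CPM per kb (SD, n = 3), Vgf 20.1 ± 9.16, Chgb 14.7 ± 2.48 and Npy 2.95 ± 1.41. Penk averaged 0.512 ± 0.159 CPM per kb, Tacr1 0.455 ± 0.386, Trh 0.312 ± 0.201 and Sst 0.149 ± 0.144. Scg2, Vgf and Chgb ranked at percentiles 94.1, 84.2 and 78.4 of the tested genes, and Penk, Tacr1 and Trh at 14.0, 12.6 and 8.60. The spreads of Scg2, Vgf and Chgb overlapped, as did those of Penk, Tacr1 and Trh. The spread of Sst overlapped those of Tacr1 and Trh but not that of Penk. These are bulk samples, in which fewer cells of a type and less RNA per cell cannot be told apart.

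**Figure D1:**
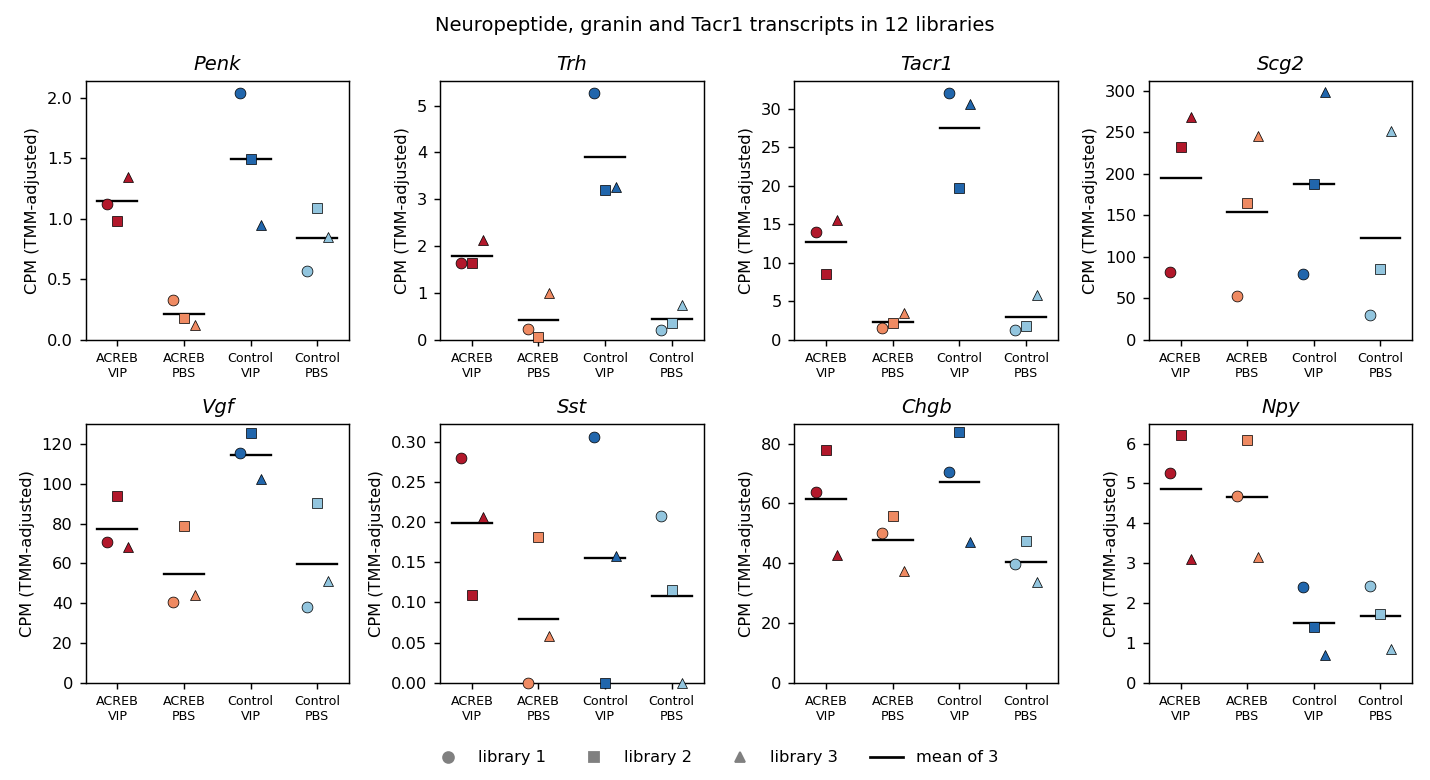
CPM (y axis, linear, from 0) of the 8 genes in the 4 groups (x axis), with 1 point per library, the shape giving the library number and the bar the mean of 3. Trh and Tacr1 are highest in control VIP cultures, Penk is lowest in ACREB PBS cultures at 0.117 to 0.327 CPM, Npy is higher with ACREB than with control virus, and Scg2 separates by library number.

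Penk, on chromosome 4 (4133531 to 4138819, GRCm38, minus strand), encodes proenkephalin, the precursor of the enkephalin opioids. In libraries 1 to 3 it measured 1.12, 0.981 and 1.34 CPM in ACREB VIP cultures and 0.327, 0.181 and 0.117 CPM in ACREB PBS cultures. It measured 2.04, 1.50 and 0.949 CPM in control VIP cultures and 0.571, 1.09 and 0.848 CPM in control PBS cultures. The ACREB PBS libraries were the lowest of all 12 and did not overlap those of any other group, while the control VIP and control PBS libraries overlapped. These values rest on 209 counts in the 12 libraries, with 6, 3 and 2 counts in the ACREB PBS libraries.

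The VIP response of Penk was larger in fold with ACREB than with control virus. The ratio of group means, VIP over PBS, was 5.51 with ACREB and 1.79 with control virus, and the log2 fold changes were 2.41 (SE 0.47) and 0.84 (SE 0.38). The CPM gained with VIP was 0.940 with ACREB and 0.660 with control virus. The VIP over PBS ratio within a library number was 3.43 to 11.5 with ACREB and 1.12 to 3.58 with control virus, with VIP the higher in 3 of 3 numbers in both. Subtracting the log2 response with control virus from that with ACREB left 1.57 (SE 0.61). After VIP, the Penk levels of both viruses overlapped, and ACREB minus control was -0.38.

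Without VIP, Penk was at 0.208 ± 0.108 CPM with ACREB and 0.837 ± 0.260 CPM with control virus (SD, n = 3), a log2 difference of -1.95 (SE 0.48) with the groups not overlapping and ACREB lower in 3 of 3 library numbers. It did not pass the quasi-likelihood test of edgeR (Benjamini-Hochberg adjusted p = 0.298 over all genes). With the library number as a block in edgeR, it was -1.96 (SE 0.51, adjusted p = 0.167). The two-sided exact permutation p, which ignores the numbers, was 0.1, the smallest that 3 against 3 allow. Over 19 alternatives its log2 difference was -2.44 to -1.67 and its adjusted p 0.0828 to 0.997. The same ACREB PBS libraries enter the VIP ratio of Penk with ACREB, so the low level there and the larger ratio are not separate observations. The PBS libraries of both viruses also enter the difference of the VIP responses, so the p-values here are no separate support for it. Penk overlaps A830012C17Rik on the opposite strand; that gene had 3 counts in all 12 libraries.

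Trh, on chromosome 6 (92242061 to 92244650, minus strand), encodes the precursor of thyrotropin-releasing hormone. In libraries 1 to 3 it measured 1.63, 1.63 and 2.12 CPM in ACREB VIP cultures, against 0.218, 0.0604 and 0.994 CPM in ACREB PBS cultures. It measured 5.26, 3.19 and 3.27 CPM in control VIP cultures, against 0.208, 0.345 and 0.742 CPM in control PBS cultures. VIP and PBS libraries did not overlap in either virus, and every ACREB VIP library was below every control VIP library. The ratio of group means, VIP over PBS, was 4.23 with ACREB and 9.06 with control virus, and the gain with ACREB was 39.4% of the gain with control virus (1.37 and 3.48 CPM). The log2 VIP response was 2.07 (SE 0.62) with ACREB and 3.16 (SE 0.60) with control virus, a difference of -1.09 (SE 0.89). Without ACREB PBS library 3, whose Trh level was the highest of the 6 PBS libraries, the response with ACREB was 3.59. Without control PBS library 3, the highest of its group, the response with control virus was 3.80.

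Tacr1, on chromosome 6 (82402334 to 82560104, plus strand), encodes the receptor for substance P, a tachykinin peptide. It measured 14.0, 8.55 and 15.6 CPM in ACREB VIP cultures, against 1.47, 2.11 and 3.39 CPM in ACREB PBS cultures. It measured 32.1, 19.7 and 30.6 CPM in control VIP cultures, against 1.25, 1.78 and 5.83 CPM in control PBS cultures. As with Trh, the VIP libraries lay above the PBS libraries in both viruses, and the ACREB VIP libraries lay between the PBS and the control VIP libraries. The ratio of means was 5.46 with ACREB and 9.30 with control virus, and the gain with ACREB was 42.4% of that with control virus. The log2 VIP response was 2.45 (SE 0.50) with ACREB and 3.21 (SE 0.49) with control virus, and ACREB over control after VIP was 0.434 to 0.510 within the 3 library numbers. Without control PBS library 3, whose Tacr1 level was the highest of the 6 PBS libraries, the response with control virus was 4.18. Tac1, which encodes the substance P precursor, had 3, 3 and 0 counts in ACREB VIP libraries, 6, 3 and 3 in control VIP libraries and 0 in all 6 PBS libraries, and it was not tested.

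Scg2, on chromosome 1 (79434669 to 79440120, minus strand), encodes secretogranin II, a granule protein and the precursor of secretoneurin. It measured 81.9, 232.1 and 268.7 CPM in ACREB VIP cultures, against 52.7, 164.6 and 244.7 CPM in ACREB PBS cultures. It measured 78.5, 186.9 and 298.1 CPM in control VIP cultures, against 29.0, 85.2 and 251.4 CPM in control PBS cultures. Library number separated these values more than virus or treatment did: number 1 spanned 29.0 to 81.9 CPM, number 2 spanned 85.2 to 232.1 and number 3 spanned 244.7 to 298.1, with no overlap. The range of the 3 number means was 2.20 on the log2(CPM + 2) scale, and 2 of the 16761 tested genes had a larger one. Within a number, VIP over PBS was 1.56, 1.41 and 1.10 for numbers 1 to 3 with ACREB and 2.71, 2.19 and 1.19 with control virus, so VIP was higher in 3 of 3 pairs in each virus. The log2 VIP response was 0.34 with ACREB and 0.62 with control virus, and with the library number as a block it was 0.44 and 0.88. Over 19 alternatives it was -0.07 to 0.84 with ACREB and 0.13 to 1.72 with control virus, the highest without control PBS library 3. The summed microglia markers were highest in number 3 as well, at 1026 to 1471 CPM in number 1, 1081 to 2112 in number 2 and 2186 to 2793 in number 3. So were the summed endothelial markers, at 46.6 to 57.6 CPM in number 3 against 21.7 to 36.5 in the others. The endothelial sum was nearly all Kdr (5722 counts in the 12 libraries) and Flt1 (2395). Pecam1, Cdh5 and Tek had 65, 73 and 29 counts and did not pass the filter. Cdh5 was lowest in number 3 in every group, at 1 to 5 counts. Neuron markers summed to 134 to 138 CPM in number 1, 167 to 202 in number 2 and 94.4 to 117 in number 3. That sum was highest where Chgb and Vgf were highest, but most of it was Stmn2 (15757 counts in the 12 libraries) and Tubb3 (6304). Rbfox3 was instead highest in number 3 in every group, and Syt1 was highest in number 2 in no group. The part of these cell types in the Scg2, Chgb and Vgf levels was not tested.

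**Figure D2:**
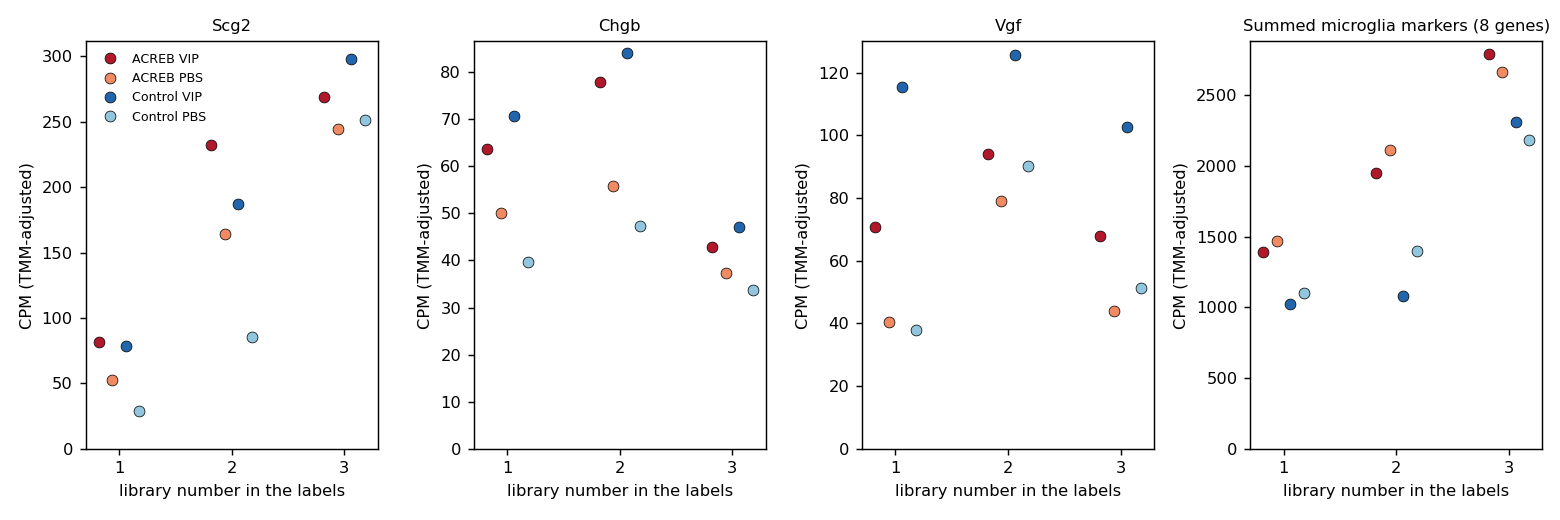
CPM (y axis, linear, from 0) of Scg2, Chgb, Vgf and the sum of 8 microglia markers against the library number in the labels (x axis), coloured by group. Scg2 is lowest in number 1 and highest in number 3 in every group, its number 1 libraries staying at or below 81.9 CPM, Chgb and Vgf are highest in number 2, and within a number VIP lies above PBS for all 3 genes in both viruses.

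Vgf, on chromosome 5 (137026392 to 137033351, plus strand), encodes a nerve growth factor-inducible granin that is cut into several peptides. It measured 70.6, 93.9 and 68.1 CPM in ACREB VIP cultures, against 40.4, 78.9 and 44.1 CPM in ACREB PBS cultures. It measured 115.5, 125.6 and 102.6 CPM in control VIP cultures, against 37.8, 90.3 and 51.3 CPM in control PBS cultures. VIP and PBS libraries overlapped with ACREB and not with control virus, and all 3 ACREB VIP libraries were below the control VIP libraries. The log2 VIP response was 0.51 (SE 0.31) with ACREB and 0.94 (SE 0.31) with control virus, and the gain with ACREB was 42.2% of that with control virus. The Vgf level of control PBS library 2 was the highest of the 6 PBS libraries; without that library, the response with control virus was 1.36.

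Chgb, on chromosome 2 (132781278 to 132795079, plus strand), encodes chromogranin B, a major granule protein. It measured 63.7, 77.9 and 42.8 CPM in ACREB VIP cultures, against 50.1, 55.8 and 37.4 CPM in ACREB PBS cultures. It measured 70.6, 84.0 and 47.2 CPM in control VIP cultures, against 39.7, 47.3 and 33.8 CPM in control PBS cultures. The groups overlapped in every comparison, but within a library number VIP was higher than PBS in 3 of 3 pairs in each virus, by 1.15 to 1.39 times with ACREB and 1.40 to 1.78 times with control virus. ACREB over control was 1.11 to 1.26 within the 3 numbers without VIP and 0.902 to 0.927 after VIP. The log2 VIP response was 0.36 (SE 0.25) with ACREB and 0.74 (SE 0.25) with control virus, and the gain with ACREB was 50.7% of that with control virus.

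Npy, on chromosome 6 (49822710 to 49829507, plus strand), encodes neuropeptide Y. It measured 5.27, 6.21 and 3.10 CPM in ACREB VIP cultures, against 4.69, 6.10 and 3.16 CPM in ACREB PBS cultures. It measured 2.40, 1.40 and 0.686 CPM in control VIP cultures, against 2.44, 1.72 and 0.848 CPM in control PBS cultures. VIP and PBS libraries overlapped in both viruses, with a log2 VIP response of 0.06 with ACREB and -0.16 with control virus, whereas ACREB and control libraries did not overlap with either treatment. Without VIP, ACREB minus control was 1.47 (SE 0.46), higher in 3 of 3 library numbers, which did not pass edgeR's quasi-likelihood test (adjusted p = 0.533). The two-sided exact permutation p, which ignores the numbers, was 0.1, the smallest possible. With the library number as a block the difference was 1.51 (adjusted p = 0.0514), and adding offsets for GC content and length to the block took it past the threshold (adjusted p = 0.0225), both by edgeR. With VIP, ACREB minus control was 1.69. All 8 microglia markers were also higher with ACREB than with control virus, with a median log2 difference of 0.39 without VIP and 0.45 with it and 0 past the threshold. Medians were 0.30 and 0.36 for ependymal and 0.31 and 0.29 for endothelial markers. The other marker lists had medians between -0.36 and 0.07. Across library numbers, Npy was lowest in number 3 in every group, where the summed microglia markers were highest (2186 to 2793 CPM). The part of these cell types in the Npy values was not tested.

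Sst, on chromosome 16 (23889573 to 23890958, minus strand), encodes somatostatin, the gene in which the CRE was described. It had 5, 2 and 4 counts in ACREB VIP libraries, 0, 3 and 1 in ACREB PBS libraries, 6, 0 and 3 in control VIP libraries and 4, 2 and 0 in control PBS libraries. The total was 30 counts, with 0 in 3 libraries and all groups overlapping. A count of 0 allows up to 3 counts, or 0.150 to 0.181 CPM, which covers counting error alone. No VIP response of Sst was detectable at this depth.

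Across the 7 genes that passed the filter, 6 were higher with VIP within all 3 library numbers in each virus, as were 12.2% of tested genes with ACREB and 11.5% with control virus. Npy was the other: it was higher in 2 of 3 numbers with ACREB and lower in 3 of 3 with control virus (ratios 0.808 to 0.985), as were 15% of tested genes. Lower in all 3 numbers with ACREB were 0 of the 7, against 13.1% of tested genes. In control cultures, 2 of the 7, Trh and Tacr1, were among the 71 genes called higher with VIP by edgeR's quasi-likelihood test, which were 0.424% of the genes tested (82 genes or 0.489% in either direction). With the library number as a block, which called 274 of the 16761 tested genes, Chgb and Vgf were called too. Leaving out control PBS library 1, control VIP library 1 or control VIP library 3 ended both calls (log2 2.82 to 3.29 for Trh and 2.84 to 3.14 for Tacr1), and Trh also lost its call without each of control PBS libraries 2 and 3, control VIP library 2, ACREB PBS library 1 and the 3 ACREB VIP libraries. With ACREB, 0 of the 7 were among the 2 genes called higher (0.0119%). The block called 13 genes in all and added Tacr1, and DESeq2 called 27 in all, with Penk and Tacr1 among them. The median log2 VIP response of the 7 was 0.51 with ACREB and 0.84 with control virus, and that of all tested genes 0.00 and -0.02.

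**Figure D3:**
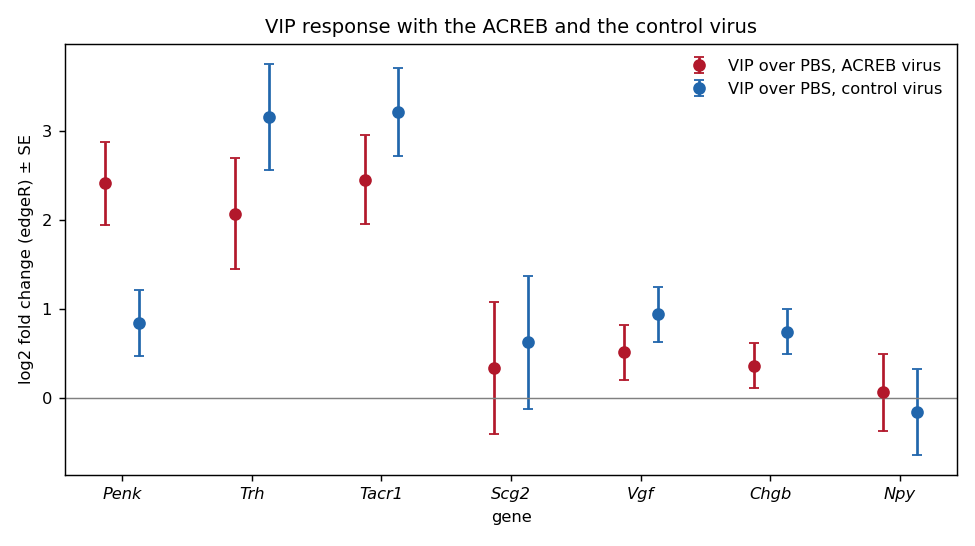
Log2 fold change of VIP over PBS (y axis, edgeR, bars ± SE) for the 7 tested genes (x axis), with ACREB virus left of control virus. Penk has the larger value with ACREB (2.41 against 0.84), and the other genes except Npy have the larger value with control virus (for Trh not without ACREB PBS library 3, at 3.59 with ACREB). In this fit, which leaves out the library number, the SE bars overlap between viruses for every gene except Penk. With the number as a block (not drawn), they would overlap only for Scg2 and Npy. For Chgb the block gave 0.34 (SE 0.10) with ACREB and 0.71 (SE 0.10) with control virus. For Trh, the narrowest case, it gave 2.13 (SE 0.56) and 3.23 (SE 0.52).

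VIP and PBS libraries did not overlap for Penk, Trh and Tacr1 with ACREB, where 3.45% of tested genes were higher in that way, and for Trh, Tacr1 and Vgf with control virus, where 4.52% were. Lower without overlap were 0 of the 7, against 3.26% of tested genes with ACREB and 5.27% with control virus. Neuron markers, a possible source of peptide transcripts, summed to 117 to 174 CPM in ACREB VIP libraries, 113 to 179 in ACREB PBS libraries, 107 to 167 in control VIP libraries and 94.4 to 202.4 in control PBS libraries. Most of these sums was Stmn2 and Tubb3, so they say little of the other neuron markers. Of 11 tested neuron markers, 0 were called with VIP under ACREB, and 1, Gad1, under control virus. The median log2 VIP response of the 11 was 0.06 with ACREB and 0.40 with control virus, with 7 positive in each. After VIP, their median for ACREB minus control virus was -0.32, with 4 positive. Of the 13 listed, 5 averaged under 1 CPM, and their part in the VIP responses was not tested.

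The difference of the VIP responses, ACREB minus control virus, was negative for 5 of the 7 genes: -1.09 for Trh, -0.76 for Tacr1, -0.43 for Vgf, -0.38 for Chgb and -0.29 for Scg2. It was positive for Penk at 1.57 and for Npy at 0.22. Of the 16761 genes, 0 (0%) passed the threshold for this difference in edgeR, with 201 at an unadjusted p under 0.05, and 0 with the block or in DESeq2. Leaving out control PBS library 2 put Penk at 1.34 and Tacr1 at -0.51. The libraries with the highest PBS levels of Trh were ACREB PBS library 3 and control PBS library 3: leaving out the first turned the Trh difference to 0.44, and leaving out the second put it at -1.74. The same omissions put Tacr1 at -0.38 and -1.73. Over 18 alternatives the difference was positive in 18 for Penk, 16 for Npy, 1 for Trh, 4 for Scg2 and 0 for each of Tacr1, Vgf and Chgb.

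After VIP, 3 of the 7 genes, Trh, Tacr1 and Vgf, were lower with ACREB than with control virus without overlap, as were 7.07% of tested genes, and Npy was higher without overlap, as were 6.96%. In edgeR's test 0 of the 7 were among the 9 genes called (0.0537%), and Npy was among the 61 called with the block. Without VIP, Penk was lower and Npy higher without overlap, as were 4.44% and 4.34% of tested genes, and 0 of the 7 were among the 6 genes called (0.0358%). Within all 3 library numbers, Penk was lower with ACREB without VIP, as were 20.1% of tested genes, and Npy and Chgb were higher, as were 20.7%. After VIP, Npy was higher in all 3 numbers, as were 22.2%, and Trh, Tacr1, Vgf and Chgb were lower, as were 21.6%. The other 5 genes did not pass the same edgeR test without VIP, at -0.03 for Trh (SE 0.72, adjusted p = 0.996), -0.35 for Tacr1 (SE 0.52), 0.34 for Scg2 (SE 0.75), -0.14 for Vgf (SE 0.31) and 0.25 for Chgb (SE 0.25), the last 4 with an adjusted p of 0.956. With the library number as a block, their edgeR adjusted p was 0.425 (Chgb) to 0.977 (Trh). Their two-sided exact permutation p, which ignores the numbers, was 0.3 to 1.

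**Figure D4:**
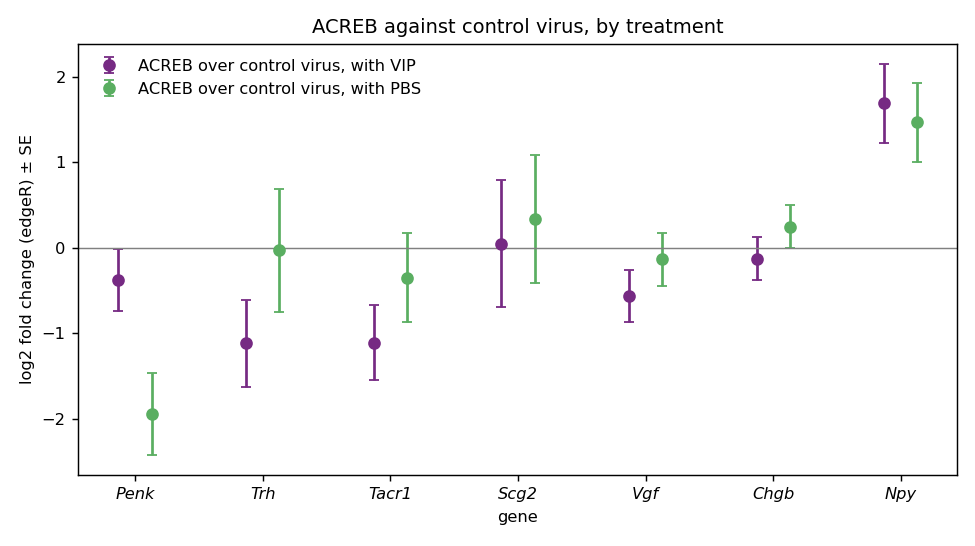
Log2 fold change of ACREB over control virus (y axis, edgeR, bars ± SE) for the 7 tested genes (x axis), with VIP left of PBS. Penk is low without VIP (-1.95) and near 0 with VIP (-0.38), Trh, Tacr1 and Vgf are below 0 with VIP and near it without, and Npy is high with both (1.69 and 1.47).

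The remaining neuropeptide pathway was described by 5 further gene lists, and 0 genes of them passed edgeR's test over all genes in any of the 5 contrasts. They were 46 further peptide precursors, 15 of them tested, 9 granin and granule genes (8 tested), 12 processing enzymes (12), 12 degrading enzymes (10) and 17 receptors of the members' peptides (6). The median log2 VIP response of the tested precursors was 0.11 with ACREB and -0.20 with control virus, and that of the granule genes 0.03 and 0.06. The most abundant of each list, Apln (apelin precursor, 45.1 CPM on average), Scg3 (secretogranin III, 189 CPM), Cpe (carboxypeptidase E, 2596 CPM), Lnpep (191 CPM) and C3ar1 (54.2 CPM), had VIP responses between -0.14 and 0.30 with ACREB and between -0.25 and 0.55 with control virus.

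The precursor genes that the block called with VIP in control cultures were Cartpt, Crh and Edn1, which are named after their values were seen. Cartpt, the precursor of cocaine- and amphetamine-regulated transcript peptide, measured 1.80, 1.20 and 1.71 CPM in ACREB VIP cultures, against 0, 0.423 and 0.643 CPM in ACREB PBS cultures. It measured 4.91, 2.80 and 3.80 CPM in control VIP cultures, against 0.208, 0.460 and 1.01 CPM in control PBS cultures. As for Trh and Tacr1, VIP libraries lay above PBS libraries in both viruses, and the log2 VIP response was 2.14 with ACREB and 2.76 with control virus. In control cultures the adjusted p of Cartpt was 0.0979 in edgeR's quasi-likelihood test, 0.0253 with the block and 0.000538 in DESeq2. Crh, the corticotropin-releasing hormone gene, had a log2 VIP response of 1.19 with ACREB and 2.29 with control virus (edgeR adjusted p = 1 and 0.139, and 0.0315 in control cultures with the block). For Edn1, the endothelin 1 gene, the responses were 0.41 and 0.98 (edgeR adjusted p = 1 and 0.115, and 0.0175 in control cultures with the block). Pcsk1, a convertase that cuts peptide precursors, measured 1.07, 0.545 and 0.930 CPM in ACREB VIP cultures, against 0.163, 0 and 0.234 CPM in ACREB PBS cultures, and 2.10, 1.65 and 1.85 CPM in control VIP cultures, against 0, 0.230 and 0.848 CPM in control PBS cultures. Its VIP libraries lay above its PBS libraries in both viruses, as did those of 3.45% of tested genes with ACREB and 4.52% with control virus. Its edgeR adjusted p was 1 with ACREB and 0.345 with control virus, and neither the block nor DESeq2 called it. Pcsk1 was likewise named with its values known. The 12 processing enzymes had a median log2 VIP response of 0.052 with ACREB (10 positive) and -0.009 with control virus (6 positive).

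**Figure D5:**
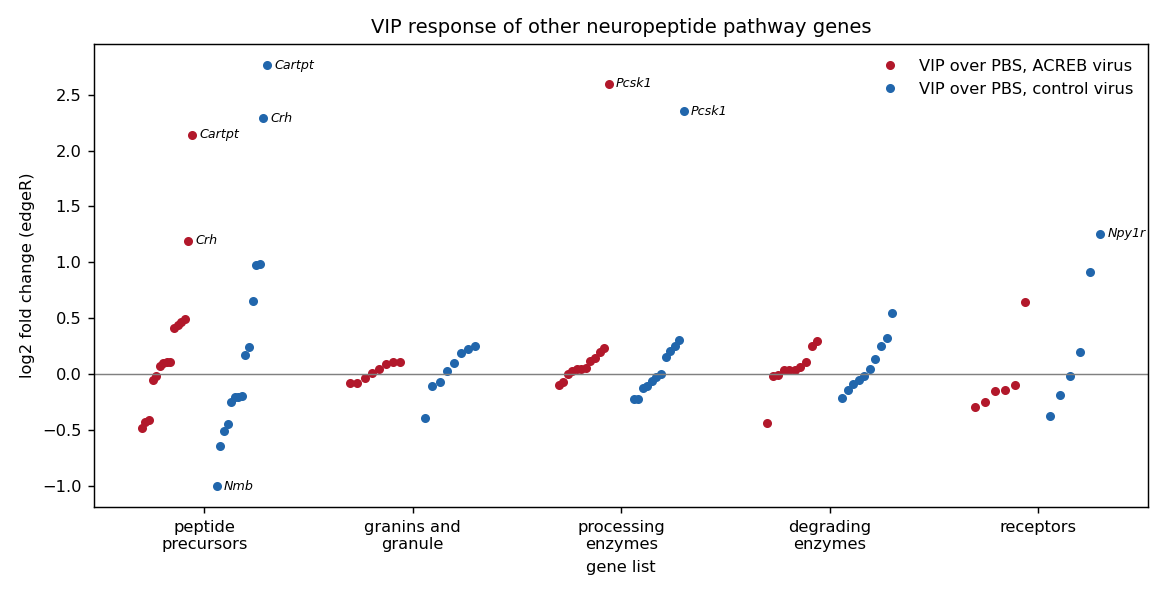
Log2 fold change of VIP over PBS (y axis, edgeR) for every tested gene of the 5 other pathway lists (x axis), with ACREB virus left of control virus and genes sorted by value within a list; names mark values of at least 1 in size. Most genes lie near 0, and Cartpt, Crh and Pcsk1 lie above 1 in both viruses.

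Likeness to Penk over the 12 libraries was measured by the root mean square difference of centred log2(CPM + 2). The candidates were 12423 of the 13503 tested genes with a mean of at least 2 CPM, leaving out symbols of predicted, RIKEN and clone-named genes. The 5 closest to Penk were Gpr180 (0.137), Zfp324 (0.141), Irgq (0.142), Tmem104 (0.145) and Gfra1 (0.148, which overlaps Gm16277 on the other strand). The SD of Penk itself on that scale was 0.270. Gpr180, the closest, averaged 24.2 ± 0.829 CPM in ACREB VIP cultures and 19.3 ± 0.878 in ACREB PBS cultures, and 30.0 ± 3.51 in control VIP cultures and 24.9 ± 4.96 in control PBS cultures (SD, n = 3). Like Penk, it was lowest in ACREB PBS cultures, which follows from how it was chosen and is not a separate observation. Its VIP means exceeded its PBS means by less in fold than those of Penk (5.51 with ACREB and 1.79 with control virus). The pseudocount of 2 compresses the pattern of Penk, whose mean was 0.923 CPM. Without control PBS library 2, 2 of the 5 stayed among the closest, and with a pseudocount of 0.5, 0 did.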

How the data were processed

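PolyA RNA was sequenced from 12 libraries of astrocyte-enriched cultures, 4 groups of 3, with strand-specific 150 bp paired-end reads per the labels' protocols. The deposited table holds raw, unpooled counts of reads per Ensembl gene for each library, as the authors made them. The submitters' processing notes name Trimmomatic 0.39, STAR 2.7.1a, HTSeq 0.11.2, R 3.6.1, edgeR and the GRCm38 (mm10) genome; how the counter treated strand, and which annotation release it read, is not given in the sources used here. Entries that name no gene numbered 0. Symbols and positions were taken from the GENCODE annotation of GRCm38, which matched 55480 of 55573 gene identifiers, and promoter sequences from RefSeq.

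In R 4.3.3, edgeR 4.0.16 was used with filterByExpr (16761 of 55573 genes kept), TMM scaling and 1 quasi-likelihood fit of all 12 libraries with a mean per group (residual degrees of freedom 8). Benjamini-Hochberg adjustment ran over all 16761 genes, and an adjusted p under 0.05 was called. CPM used TMM-adjusted library sizes. For log2 fold changes, the SE was taken as the size over the root of the F statistic and is not a fitted error. The procedure was also run on simulated counts that had a common dispersion and no effect of library number, GC content or length. That run does not show how the fit performs on these libraries, where such effects were present. Deviations from the group mean went together for libraries of 1 number in 18 of 18 pairs (correlation across genes of log CPM 0.132 to 0.679), and 12 of 12 libraries correlated best with one of their own number, so the numbers were taken to pair the libraries, from the data and not from the labels; on the log2(CPM + 2) scale, tried first, 17 of 18 pairs exceeded 0.1 (lowest 0.0863). The fit with this number as a block is an alternative, as are DESeq2 1.42.0, RLE size factors, no filter on low counts, the libraries of a contrast alone, GC and length offsets (16753 tested genes had values), CPM on raw totals and leaving out each library.

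The 8 genes, the gene lists and the tests were chosen with earlier results of these data known. The naming rule covered the 8 genes and genes of the pathway lists past the threshold with the most abundant of each list. It also covered the 5 genes most like Penk, and promoters with a full CRE, Penk and Tacr1. Cartpt, Crh, Edn1, Pcsk1, Tac1, single cell type markers and the Trh promoter were given outside this rule. Intervals and floors cover counting error only.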

Additional observations from a re-analysis of the deposited data

How the results depend on the processing

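In control cultures, VIP against PBS called 82 genes, 2 of them among the 8 followed here. With the replicate block it called 274 and 4, with DESeq2 245, without a filter on low counts 131, with the libraries of the contrast alone 2 and 0, with GC and length offsets 190, and with these and the block 579 and 4. Leaving out 1 library gave 25 to 91 genes and 0 to 2 of the 8. With ACREB, VIP against PBS called 2 genes and 0 of the 8, with the block 13 and 1, with DESeq2 27 and 2, without a filter 13 and 1, with the contrast's libraries 1, with GC and length offsets 9, with these and the block 64 and 1, and leaving out 1 library 1 to 5 genes and 0 of the 8. ACREB against control virus with PBS called 6 genes and 0 of the 8, with the block 37, with DESeq2 94, without a filter 15, with the contrast's libraries 0, with GC and length offsets 12, with these and the block 337 and 1 (Npy), and leaving out 1 library 0 to 3 and 0 of the 8. With VIP it called 9 and 0, with the block 61 and 1 (Npy), with DESeq2 122, without a filter 18, with GC and length offsets 38, with these and the block 626 and 3 (Npy, Tacr1 and Vgf), and leaving out 1 library 0 to 41 and 0 of the 8. The difference of the VIP responses called 0 genes in each of its alternatives, and the contrast's libraries alone were not run for it because it needs all 12. The replicate block changed no other call among the 8.

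Signs turned for 4 genes in ACREB against control virus with PBS, where their differences were uncertain. With GC and length offsets Trh was at 0.032 and Vgf at 0.082, and with the block besides Vgf was at 0.068. Leaving out 1 library gave -1.56 to 0.62 for Trh, -0.73 to 0.62 for Tacr1, -0.17 to 1.43 for Scg2 and -0.50 to 0.29 for Vgf. The sign turned for Trh without control PBS library 3 and without ACREB PBS libraries 1 or 2, for Tacr1 without control PBS library 3, for Scg2 without control PBS library 1 (-0.13) or ACREB PBS library 3, and for Vgf without control PBS library 2 or ACREB PBS library 1 (0.04). In the other comparisons, values near 0 also changed sign. The Npy response to VIP with control virus was positive in 4 of 19 alternatives (-0.67 to 0.23), and with ACREB those of Npy and Scg2 in 17 and 18. After VIP, ACREB minus control was positive in 2 of 19 for Chgb and 16 for Scg2. The cause was not tested. Depth limits Sst, Penk and Trh most, since 1 count is 0.0499 to 0.0604 CPM.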
